A study of Homo sapiens and Mus musculus with 17 samples.

Results

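The lysosomal hydrolases described here are 9 enzymes: the glycosidases FUCA1, FUCA2, GLA, HEXA and NEU1, the thioesterase PPT1, and the cathepsins CTSD, CTSB and CTSL. They were chosen by gene symbol, ignoring case, and each matched 1 of the 62714 genes in the HEK293T table and 1 of the 55491 genes in the brown adipose tissue (BAT) table. PPT1, FUCA2 and GLA are glycoproteins that the study lists among candidate substrates of endoplasmic reticulum-associated degradation (ERAD), the pathway in which SEL1L and the ubiquitin ligase HRD1 (gene SYVN1) remove misfolded proteins from the ER. For FUCA2 the study also reported more protein and slower degradation in ERAD-deficient HEK293T cells, and unchanged protein in ERAD-deficient BAT. Its quantitative PCR found no significant change of FUCA2 mRNA in ERAD-deficient HEK293T cells or Sel1L-deficient BAT. The comparison of knockout (KO) with WT mRNA asks whether transcript levels of these enzymes differ where ERAD is disrupted. When choosing candidates, the study left out hits with significantly raised mRNA in this RNA-seq. For PPT1, FUCA2 and GLA, the absence of a rise where each is a candidate was therefore in part fixed in advance.

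PolyA RNA was sequenced from HEK293T, a human embryonic kidney line carrying the SV40 large T antigen, and from BAT of mice on the B6 background aged 12 weeks. The HEK293T groups were 3 WT cultures, which per the study's methods received the plasmid without a guide, 3 HRD1 KO cultures and 3 SEL1L KO cultures made with CRISPR/Cas9. The BAT groups were 3 WT mice, 2 Hrd1 flox/flox;Ucp1-Cre mice (Hrd1 KO) and 3 Sel1l flox/flox;Ucp1-Cre mice (Sel1L KO), in which the Ucp1 promoter directs Cre to brown adipocytes while other cells of the tissue keep the gene. No source used here says whether a KO line is 1 clone or whether its cultures were grown independently, so the p-values measure the spread between these libraries. Values are FPKM, which divides a gene's fragments by its length and by the mapped total of its library, so levels of different genes can be compared within a table.

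Lysosomal hydrolases are made in the ER, where they fold, form disulfide bonds and receive N-linked glycans. In the Golgi most are tagged with mannose 6-phosphate, and sorting receptors carry them to the lysosome, where acid pH activates them. Many lysosomal genes are under the control of the MiT/TFE factors, such as TFEB, which bind E-box sequences around CACGTG. Inherited loss of these enzymes causes storage diseases, among them fucosidosis (FUCA1), Fabry disease (GLA), Tay-Sachs disease (HEXA), sialidosis (NEU1) and neuronal ceroid lipofuscinoses (PPT1 and CTSD).

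The targeted genes were checked first. SEL1L was 4.39, 8.74 and 12.85 FPKM in HEK293T WT and 1.82, 3.36 and 2.59 in SEL1L KO. In HEK293T, SYVN1 was 16.7 to 16.95 FPKM in WT, and the cultures labelled HRD1 KO had 18.5 to 22.5. In BAT, Syvn1 was 5.20 to 5.65 FPKM in WT, whereas the mice labelled Hrd1 KO had 14.05 and 13.77. Sel1l was 9.10 to 12.9 FPKM in WT, and the mice labelled Sel1L KO had 25.2, 8.17 and 8.38. Of the 4 knockouts, only SEL1L KO in HEK293T therefore had less mRNA of its targeted gene in every library, and the other groups are given by label. A total of gene mRNA does not report a small lesion or the loss of an exon. Sel1L KO replicate 1 stood apart in BAT, with a correlation of log2 values of 0.888 and 0.874 to the other Sel1L KO libraries against 0.953 between those, and log2 fold changes of members and named genes in Sel1L KO that moved by over 1.5 times or changed sign without it are given both ways. The brown adipocyte genes Ucp1, Cidea and Adipoq were at 1138 to 3453, 2405 to 4105 and 446 to 743 FPKM over the BAT libraries, and all 7 HEK293T marker genes passed the filter in HEK293T. Of these, NEFM was at 0.34 and 0.11 FPKM in SEL1L KO replicates 1 and 2, against 50.89 in replicate 3 and 23.02 to 39.98 in WT. Relative depth, estimated from the step of 1 fragment, spanned a factor of 1.90 in HEK293T and of 1.77 in BAT.

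The order of the enzymes differed between the WT cells and the WT tissue. GLA, the alpha-galactosidase that removes terminal galactose from glycolipids, was the most abundant of the 9 transcripts in HEK293T at 140 ± 14.2 FPKM (SD, n = 3), above 94.9% of the genes tested. In BAT it was the least abundant at 0.943 ± 0.153 FPKM (n = 3), above 10.5% of the genes tested. CTSD, the aspartic protease of the lysosome, was next in HEK293T at 91.3 ± 18.2 FPKM (n = 3) and was the most abundant in BAT at 465 ± 64.4 FPKM (n = 3). CTSB and CTSL, both cysteine proteases, were at 52.1 ± 9.03 and 55.2 ± 2.87 FPKM in HEK293T and at 303 ± 35.8 and 138 ± 4.2 FPKM in BAT. The 3 cathepsins thus led the order in BAT, each with WT libraries entirely above those of the next gene.

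The middle of the order in HEK293T did not separate. CTSL, CTSB, PPT1 (51.0 ± 6.30 FPKM), HEXA (45.7 ± 10.0) and FUCA2 (44.02 ± 14.9) each overlapped the next gene in the order over the 3 WT libraries. PPT1 removes fatty acyl groups from cysteines of proteins, HEXA is the alpha subunit of beta-hexosaminidase, and FUCA2 is the secreted relative of the lysosomal fucosidase FUCA1. FUCA1 (16.1 ± 1.64) and the sialidase NEU1 (14.9 ± 3.59) stood below all of these and overlapped each other. In BAT, Hexa (31.8 ± 4.44 FPKM) and Fuca1 (28.8 ± 1.48) overlapped, and Ppt1 (12.4 ± 1.16), Neu1 (7.97 ± 0.342) and Fuca2 (6.04 ± 0.795) followed without overlap between neighbours. The tables were made against different genomes, so the order within each was compared and no test was made between them.

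**Figure D1:**
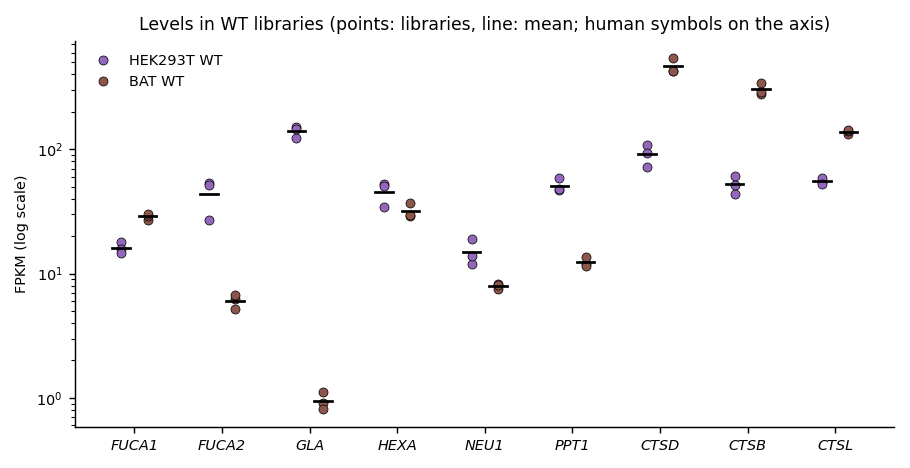
FPKM (log axis) of the 9 enzymes in the 3 WT libraries of HEK293T (purple) and the 3 of BAT (brown), with points for libraries and lines for means. GLA was the highest of the 9 in HEK293T (mean of 140 FPKM) and the lowest in BAT (0.943), while CTSD, CTSB and CTSL led the order in BAT.

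Promoter sequence was available for 7 of the 9 human genes in RefSeq's table for GRCh38.p14, which spans 250 bases before to 50 after each annotated start. CTSB and HEXA had no entry. The E-box CACGTG, a palindrome that reads the same on both strands, occurred once in the windows of NEU1 and CTSD and in none of the other 5, against 7.26% of all 35116 promoter windows. The longer form with T before and A after it occurred in none of the 7 and in 0.980% of all windows. The 2 matches are shown because they are the letters that a MiT/TFE factor could read in these windows. Each run of 30 bases is on the minus strand, written 5′ to 3′, with the E-box in capitals.
NEU1 (chr6:31862930-31862959): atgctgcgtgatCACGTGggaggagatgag
CTSD (chr11:1763957-1763986): gccggccgcgccCACGTGaccggtccgggt
The E-box began 126 bases before the start of NEU1 and 47 bases before that of CTSD. A match describes the letters in a window and is no evidence of binding.

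None of the 9 enzymes was called in HEK293T. Genes were called at an adjusted p under 0.05 (limma on log2(FPKM + 0.1), Benjamini-Hochberg over 15796 genes), and the same rule called 0.057% of all genes in the HRD1 KO against WT comparison, 0.0317% in SEL1L KO against WT and 0% in HRD1 KO against SEL1L KO. At an unadjusted p under 0.05, 0 of 9 were called in each, beside 2%, 1.49% and 2.34% of all genes. Replicate numbers pair the HEK293T libraries, and with the number as a block, an alternative chosen after seeing the data, an unadjusted p under 0.05 was reached by 0, 0 and 3 of 9, beside 6.13%, 5.53% and 7.47% of all genes. None passed after adjustment in the blocked fit. The median log2 fold change of the members was 0.10 in HRD1 KO and -0.26 in SEL1L KO, beside -0.05 and -0.06 over all genes tested. A change that misses the threshold is not shown to be absent. The 95% intervals and standard errors below are from the fit without the block and give the sizes that it leaves possible. The standard errors of all 9 were smaller with the block, at 0.12 (GLA) to 0.21 (NEU1), against 0.19 (GLA) to 0.32 (CTSD) without it.

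Among the glycosidases, FUCA1, which removes fucose from glycoproteins in the lysosome, was 17.94, 15.67 and 14.76 FPKM in WT, 18.64, 17.77 and 14.33 in HRD1 KO and 14.79, 12.59 and 12.10 in SEL1L KO. Its log2 fold change in SEL1L KO was -0.29 (95% interval -0.73 to 0.15), and 1 SEL1L KO library lay just above the lowest WT library. FUCA2 was 53.86, 51.37 and 26.82 FPKM in WT, 60.23, 51.25 and 44.71 in HRD1 KO and 48.77, 45.07 and 42.59 in SEL1L KO. The low WT library was replicate 3, and without it the change in HRD1 KO went from 0.30 to -0.03 and that in SEL1L KO from 0.11 to -0.21. GLA was 150.14, 123.42 and 145.17 FPKM in WT, 165.91, 118.42 and 168.59 in HRD1 KO and 159.00, 127.90 and 143.21 in SEL1L KO. Its replicate 2 was the lowest library of all 3 groups, and its changes were 0.10 and 0.04 with a standard error of 0.19.

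HEXA was 52.63, 50.23 and 34.21 FPKM in WT, 49.77, 58.08 and 31.36 in HRD1 KO and 39.75, 40.51 and 30.27 in SEL1L KO. Here replicate 3 was the lowest library of each group, and the changes from WT were 0.001 and -0.30, each with a standard error of 0.27. NEU1, which removes sialic acid from glycans, was 11.91, 13.85 and 18.86 FPKM in WT, 16.79, 13.51 and 13.03 in HRD1 KO and 12.21, 9.08 and 12.52 in SEL1L KO. Its change in SEL1L KO was -0.38 (95% interval -0.92 to 0.15), the lowest of the 9 members in that comparison, with 2 SEL1L KO libraries above the lowest WT library. PPT1 was 46.81, 47.85 and 58.20 FPKM in WT, 54.44, 52.42 and 65.61 in HRD1 KO and 39.73, 39.02 and 65.83 in SEL1L KO. Replicate 3 was the highest in all 3 groups, and the changes were 0.17 and -0.12 (standard error 0.23).

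Among the cathepsins, CTSD was 107.99, 71.89 and 93.91 FPKM in WT, 172.67, 72.21 and 86.45 in HRD1 KO and 89.53, 58.15 and 82.34 in SEL1L KO. HRD1 KO replicate 1 was the highest of all 9 libraries, and without it the change in HRD1 KO went from 0.19 to -0.19. CTSB was 61.45, 43.43 and 51.48 FPKM in WT, 58.90, 65.75 and 42.17 in HRD1 KO and 39.09, 42.09 and 40.65 in SEL1L KO. It was the one member whose SEL1L KO libraries all lay below WT, as did those of 3.72% of all genes, with a change of -0.35 (95% interval -0.81 to 0.12; adjusted p of 1.00). CTSL was 54.80, 58.28 and 52.59 FPKM in WT, 63.86, 53.12 and 68.65 in HRD1 KO and 72.20, 55.47 and 44.66 in SEL1L KO. Its changes were 0.16 and 0.03 (standard error 0.20), and the SEL1L KO libraries held both the highest and the lowest value of the gene.

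**Figure D2:**
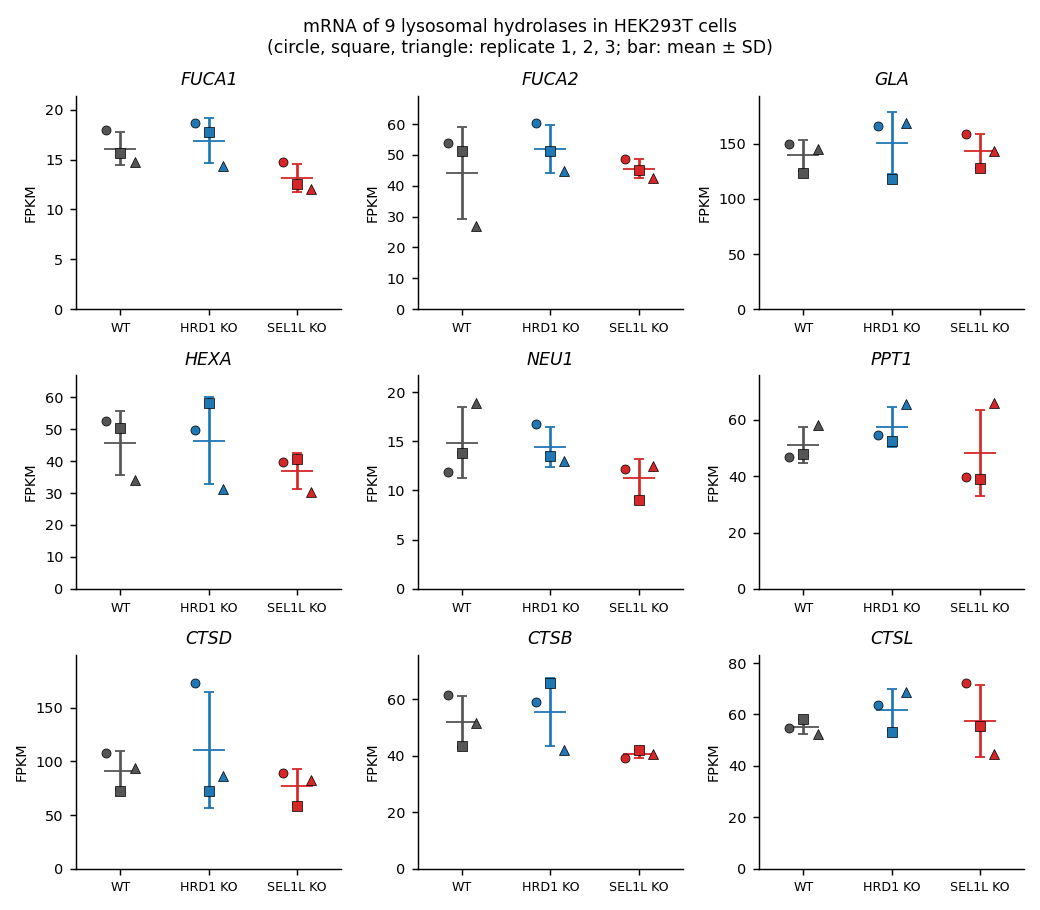
FPKM of each enzyme in the 9 HEK293T libraries, by group, with circle, square and triangle for replicates 1, 2 and 3 and bars for mean ± SD. CTSB in SEL1L KO (39.1 to 42.1 FPKM) lies below the WT libraries (43.4 to 61.5), and in GLA, HEXA and PPT1 the same replicate number is lowest or highest in every group.

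HRD1 KO and SEL1L KO were also compared directly. The mean log2 value of all 9 members was above that of SEL1L KO in HRD1 KO, with log2 differences of 0.06 (GLA) to 0.44 (CTSD) and a median of 0.30, beside 0.005 over all genes. In 2 of them, NEU1 (0.36, 95% interval -0.18 to 0.90) and CTSB (0.43, -0.04 to 0.90), every HRD1 KO library lay above every SEL1L KO library, as in 2.67% of all genes. With the replicate block, CTSD, FUCA1 and CTSB had unadjusted p values of 0.0337, 0.0351 and 0.0453 by limma (adjusted p of 0.627, 0.627 and 0.663). Each was higher in HRD1 KO in 3 of 3 pairs of libraries with the same number. So were FUCA2, HEXA and NEU1, with unadjusted p of 0.335, 0.0608 and 0.117 in the same fit. Against WT, FUCA1, HEXA, CTSD and CTSB were lower in SEL1L KO in 3 of 3 pairs, with adjusted p of 0.882 to 0.913 in the blocked fit. The share of all genes with 3 of 3 pairs was not counted, so the pair counts only describe these genes. None of these differences passed the test.

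Replicate number, which runs through all 3 HEK293T groups, took a larger share of the variation than genotype in 6 of the 9 genes. It accounted for 81.6% of the sum of squares of log2 values in GLA, 74.1% in HEXA, 64.5% in CTSD, 64.5% in PPT1 and 54.5% in FUCA2, beside a median of 54.3% over all genes tested. Genotype accounted for more in FUCA1 (56.2% against 38.7%), CTSB (46.8% against 12.0%) and NEU1 (39.2% against 17.2%), beside a median of 12.4%. In CTSL, genotype took 11.4% and replicate number 22.4%. These shares are descriptions, and the labels do not say what the numbers stand for.

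None of the 9 enzymes was called in BAT either. At an adjusted p under 0.01 (limma, Benjamini-Hochberg over 12473 genes) the rule called 0.369% of all genes in Hrd1 KO against WT, 0.104% in Sel1L KO against WT and 0.0401% in Hrd1 KO against Sel1L KO. At an unadjusted p under 0.05, Ppt1 (higher) and Ctsb (lower) were called in Hrd1 KO, where 27.4% of all genes were. Neu1 (higher), Ctsd (lower) and Ctsb (lower) were called in Sel1L KO, where 17.8% of all genes were, and 0 of 9 were called between the 2 knockouts, where 16.7% of all genes were. Of all genes called by this rule against WT, 3165 were higher and 252 lower in Hrd1 KO, and 1586 higher and 634 lower in Sel1L KO. In the Hrd1 KO libraries the median of all genes lay at 0.42 on the log2 scale and fell to -0.02 after median-ratio scaling (each library divided by its median ratio to the geometric mean). Values of Hrd1 KO are therefore given both as deposited and scaled. The median of the 9 members was 0.08 (-0.36 scaled) in Hrd1 KO, and in Sel1L KO it was 0.09 (-0.0071 scaled, -0.18 without replicate 1), where the median of all genes was 0.09. In bulk tissue, fewer cells of a type and less RNA per cell cannot be told apart.

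Ctsb was lower in both knockouts and was the member with the smallest p in Sel1L KO. It was 343.99, 276.80 and 288.87 FPKM in WT, 172.07 and 217.24 in Hrd1 KO and 107.53, 198.08 and 200.26 in Sel1L KO. Every knockout library lay below every WT library, as in 5.79% of all genes for Hrd1 KO and 8.43% for Sel1L KO. The log2 fold change was -0.64 in Hrd1 KO (standard error 0.28, adjusted p of 0.180) and -1.09 scaled (adjusted p of 0.0922). In Sel1L KO it was -0.90 (standard error 0.25, adjusted p of 0.124), -0.99 scaled (adjusted p of 0.116) and -0.60 without Sel1L KO replicate 1 (adjusted p of 0.0612). The knockouts were compared with the same WT libraries, so the 2 changes are not independent.

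Ctsd was 539.68, 428.38 and 427.83 FPKM in WT, 347.08 and 517.20 in Hrd1 KO and 231.85, 345.78 and 373.54 in Sel1L KO. The Sel1L KO libraries all lay below WT, while Hrd1 KO replicate 2 lay within the WT range. Its change was -0.57 in Sel1L KO (95% interval -1.09 to -0.05, adjusted p of 0.242), -0.67 scaled and -0.36 without Sel1L KO replicate 1. In Hrd1 KO it was -0.13 (-0.71 to 0.46) and -0.58 scaled. Ctsl was 133.62, 139.32 and 141.82 FPKM in WT, 146.06 and 145.95 in Hrd1 KO and 213.24, 122.10 and 122.43 in Sel1L KO. Sel1L KO replicate 1 was the highest library while the other Sel1L KO libraries were the lowest, and the change of 0.09 became -0.18 without replicate 1. In Hrd1 KO, Ctsl changed by 0.08, and by -0.37 after scaling. As deposited, Ctsb and Ctsd were below 0 and Ctsl above 0 in both knockouts, and after scaling all 3 were below 0, with Ctsl at -0.0071 in Sel1L KO.

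Neu1 was 8.23, 7.58 and 8.09 FPKM in WT, 10.44 and 10.30 in Hrd1 KO and 12.66, 9.89 and 9.73 in Sel1L KO. Every knockout library lay above WT, as in 51.1% of all genes for Hrd1 KO and 17.7% for Sel1L KO. In Hrd1 KO, 4 of the 9 members (Neu1, Gla, Ppt1 and Ctsl) lay wholly above WT, and in Sel1L KO 2 did (Neu1 and Gla). The change was 0.42 in Sel1L KO (95% interval 0.03 to 0.81, adjusted p of 0.253) and 0.30 without Sel1L KO replicate 1. In Hrd1 KO it was 0.38 (adjusted p of 0.235) as deposited and -0.07 scaled. Gla was 0.91, 0.81 and 1.11 FPKM in WT, 1.25 and 1.69 in Hrd1 KO and 3.31, 1.21 and 1.3 in Sel1L KO, again with every knockout library above WT. It passed the filter of 1 FPKM in 2 libraries mainly through the knockouts, since 1 WT library reached 1 FPKM. Its change was 0.83 in Sel1L KO (standard error 0.43), 0.39 without Sel1L KO replicate 1, and 0.59 in Hrd1 KO or 0.17 scaled.

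Ppt1 was 12.02, 13.66 and 11.41 FPKM in WT, 18.27 and 15.89 in Hrd1 KO and 11.88, 15.55 and 15.37 in Sel1L KO. Both Hrd1 KO libraries lay above WT, with a change of 0.46 (95% interval 0.02 to 0.91, adjusted p of 0.170) as deposited and 0.02 scaled. Its change in Sel1L KO was 0.20, and 0.32 without Sel1L KO replicate 1. Fuca1 was 27.15, 29.18 and 30.02 FPKM in WT, 28.76 and 32.39 in Hrd1 KO and 20.08, 29.03 and 21.55 in Sel1L KO, where 2 of 3 libraries lay below WT and the change was -0.31 (-0.70 to 0.09), or -0.20 without replicate 1. In Hrd1 KO it was 0.09, and -0.36 scaled. Fuca2 was 6.29, 6.68 and 5.15 FPKM in WT, 7.07 and 5.73 in Hrd1 KO and 4.51, 10.96 and 9.74 in Sel1L KO. Its Sel1L KO libraries lay on both sides of WT, with a change of 0.38 that became 0.77 without replicate 1 (adjusted p of 0.0590). Hexa was 36.96, 29.09 and 29.48 FPKM in WT, 29.66 and 37.00 in Hrd1 KO and 33.79, 25.36 and 27.52 in Sel1L KO, with all groups overlapping and changes of 0.07 (-0.38 scaled) and -0.14 (-0.26 without Sel1L KO replicate 1). The changes of Fuca2 in Hrd1 KO were 0.08 as deposited and -0.36 scaled.

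**Figure D3:**
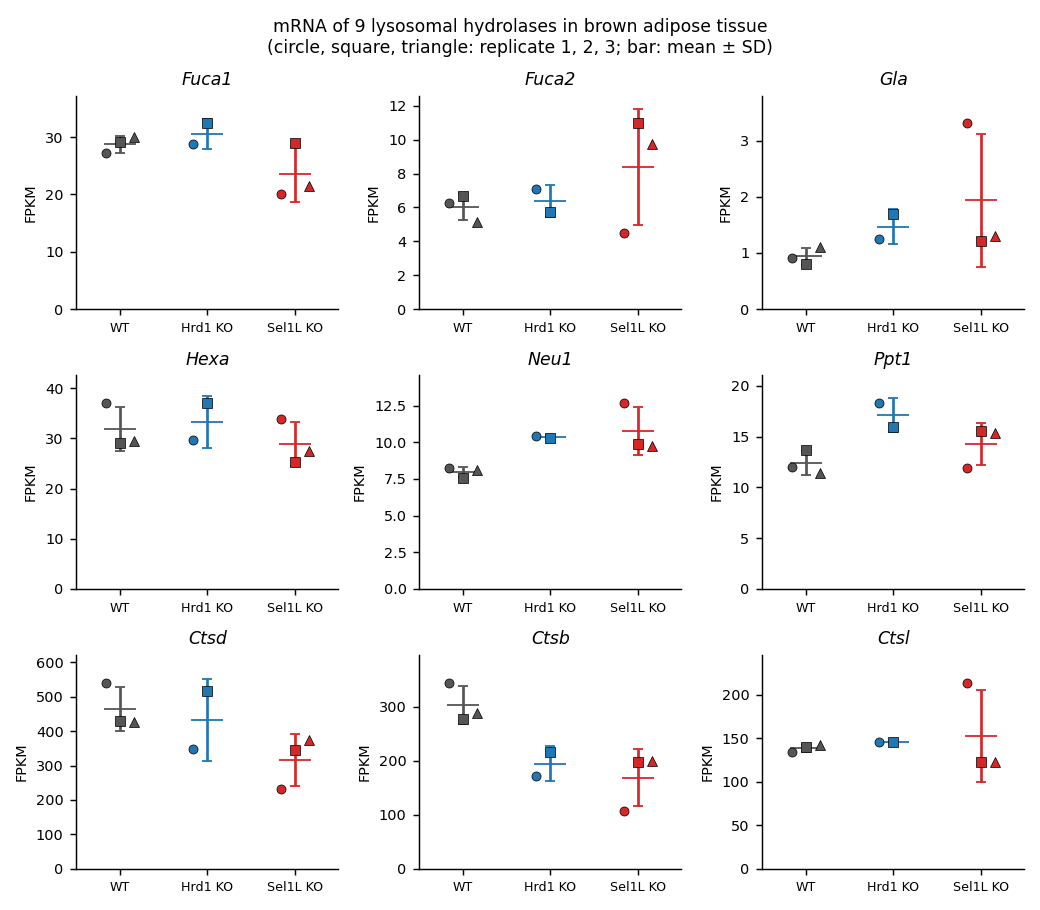
FPKM of each enzyme in the 8 BAT libraries, by group, with circle, square and triangle for replicates 1, 2 and 3 and bars for mean ± SD. Ctsb lies at 277 to 344 FPKM in WT and at 108 to 217 in the knockouts, and Sel1L KO replicate 1 is apart from the other Sel1L KO libraries in Fuca2, Gla, Neu1, Ppt1, Ctsd, Ctsb and Ctsl.

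Markers of other cells moved with the BAT groups. The summed FPKM of 11 macrophage markers, a cell type rich in lysosomes, was 52.4 to 70.3 in WT, 106 and 115 in Hrd1 KO and 226, 112 and 118 in Sel1L KO, and none of the 11 was at 0 in every library. The sum of 9 brown adipocyte markers was 22463 to 24762 in WT, 17089 and 22098 in Hrd1 KO and 22517, 18689 and 18165 in Sel1L KO. Most of it was Fabp4, at 15755 to 17463 in WT. As deposited, log2 fold changes of 3 of the 9 were above 0 and 6 below in Hrd1 KO, and 2 above and 7 below in Sel1L KO. Plin1 was 480 to 575 FPKM in WT and 810 and 824 in Hrd1 KO. Dio2 was 33.5 to 41.6 in WT, 5.77 and 4.69 in Hrd1 KO and 286, 13.2 and 8.37 in Sel1L KO. Fibroblast markers summed to 55.02 to 82.0 FPKM in WT, 126 and 108 in Hrd1 KO and 109.6, 124 and 127 in Sel1L KO. Endothelial markers summed to 62.8 to 85.3 FPKM in WT, 135 and 104 in Hrd1 KO and 65.1, 108 and 117 in Sel1L KO. In Hrd1 KO all 4 genes of each of these 2 lists and 9 of the 10 macrophage markers tested lay wholly above WT, as did 51.1% of all genes. In Sel1L KO 3 fibroblast, 1 endothelial and 9 macrophage markers did, as did 17.7% of all genes. The sums are as deposited. Median log2 fold changes in Hrd1 KO were 0.88 (0.43 scaled) for macrophage and 1.01 (0.57 scaled) for fibroblast markers. They were 0.59 (0.15 scaled) for endothelial and -0.21 (-0.66 scaled) for brown adipocyte markers. Lymphocyte and neutrophil markers summed to at most 4.47 and 7.19 FPKM. Skeletal muscle markers summed to 2.07 to 5.74 FPKM in WT, 384 and 15.5 in Hrd1 KO and 77.1, 10.4 and 1.3 in Sel1L KO. Their part in the values of Ctsb, Ctsd, Neu1 and Gla was not tested. In HEK293T the 11 macrophage markers found summed to 0.530 to 2.89 FPKM, with 2 at 0 in every library and none passing the filter.

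**Figure D4:**
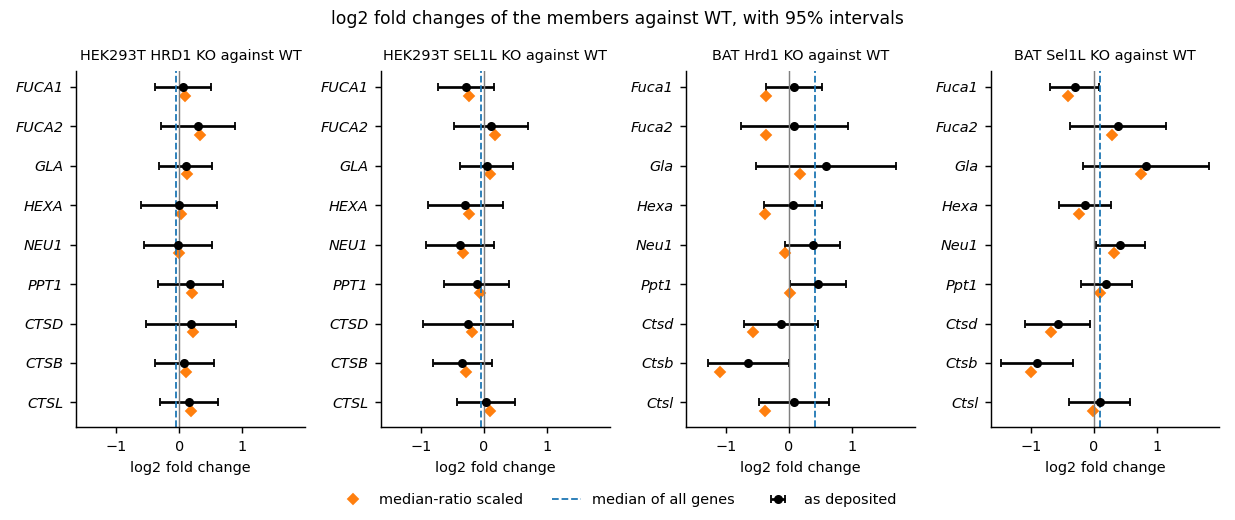
log2 fold change of each enzyme against WT in the 4 knockouts as deposited (black, with 95% interval) and after median-ratio scaling (orange), with a dashed line at the median of all genes. In Hrd1 KO of BAT that line lies at 0.42, and scaling takes Ctsb from -0.64 to -1.09.

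Another 44 lysosomal hydrolases were read from a list of textbook members, of which 41 passed the filter in HEK293T and 43 in BAT. None was called in any comparison with WT over all libraries. Counting those with an unadjusted p below 0.05 gave 0 higher and 1 lower in each HEK293T knockout, 7 higher and 2 lower in Hrd1 KO, and 3 higher and 3 lower in Sel1L KO. The same rule called 2% and 1.49% of all genes in the HEK293T knockouts and 27.4% and 17.8% in those of BAT. Over both directions together, the BAT counts were not above the share of all genes. Of all 12473 genes tested in BAT, 3165 were higher and 252 lower in Hrd1 KO, and 1586 higher and 634 lower in Sel1L KO. The medians were 0.004 and -0.11 in HRD1 KO and SEL1L KO of HEK293T. In BAT they were 0.33 (-0.11 scaled) in Hrd1 KO and -0.10 in Sel1L KO. The Sel1L KO median depended on replicate 1, without which the gene at the median was Man2b1, at 0.12. Smpd1, the gene at the median over all libraries, went from -0.10 to 0.22. The median of all genes without replicate 1 is not given here, so a general shift cannot be told apart. Most genes of the list that changed sign without replicate 1 went from below 0 to above, such as Manba (-0.33 to 0.41). Scpep1 went the other way, from 0.008 to -0.16.

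Cathepsin Z, a carboxypeptidase, was at the low end in both tables. CTSZ was 9.21, 5.01 and 1.07 FPKM in HEK293T WT, 0.79, 1.01 and 0.72 in HRD1 KO and 0.65, 0.98 and 0.95 in SEL1L KO, so that 1 WT library was close to the knockouts. Its changes were -2.03 and -2.01 (standard error 0.68, adjusted p of 1.00 for both). Ctsz was 320.41, 269.75 and 225.75 FPKM in BAT WT, 105.84 and 154.75 in Hrd1 KO and 128.97, 133.95 and 130.93 in Sel1L KO. Its changes of -1.07 (adjusted p of 0.0313, or -1.52 and 0.0431 scaled) and -1.04 (adjusted p of 0.0482) missed the threshold of 0.01 used for BAT.

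Acp5, the tartrate-resistant acid phosphatase, had the lowest value in Sel1L KO. It was 121.47, 123.03 and 99.55 FPKM in WT and 51.33, 49.23 and 55.90 in Sel1L KO, a change of -1.13 (adjusted p of 0.0155). Without Sel1L KO replicate 1, an alternative chosen after seeing the data, the change was -1.12 and its adjusted p of 0.00872 passed the threshold of 0.01. The highest values belonged to Ctss in Sel1L KO and Ctsc in Hrd1 KO, both cysteine cathepsins. Ctss was 3.62, 5.19 and 3.62 FPKM in WT and 21.14, 11.46 and 9.45 in Sel1L KO, a change of 1.67 (adjusted p of 0.0559), or 1.33 without Sel1L KO replicate 1 (adjusted p of 0.0212). Ctsc was 3.88, 3.80 and 3.35 FPKM in WT and 9.84 and 8.03 in Hrd1 KO, a change of 1.25 (adjusted p of 0.0381) that was 0.81 after scaling (adjusted p of 0.187). The macrophage marker sums were higher in both BAT knockouts as given above, while of these hydrolases Ctss and Ctsc were higher and Ctsz and Acp5 lower. The part of macrophages in any of them was not tested. AGA, which cleaves glycans from asparagine, was the highest of the list in both HEK293T knockouts, with changes of 0.53 and 0.34 and a WT library at 2.98 FPKM against 12.67 and 13.42.

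**Figure D5:**
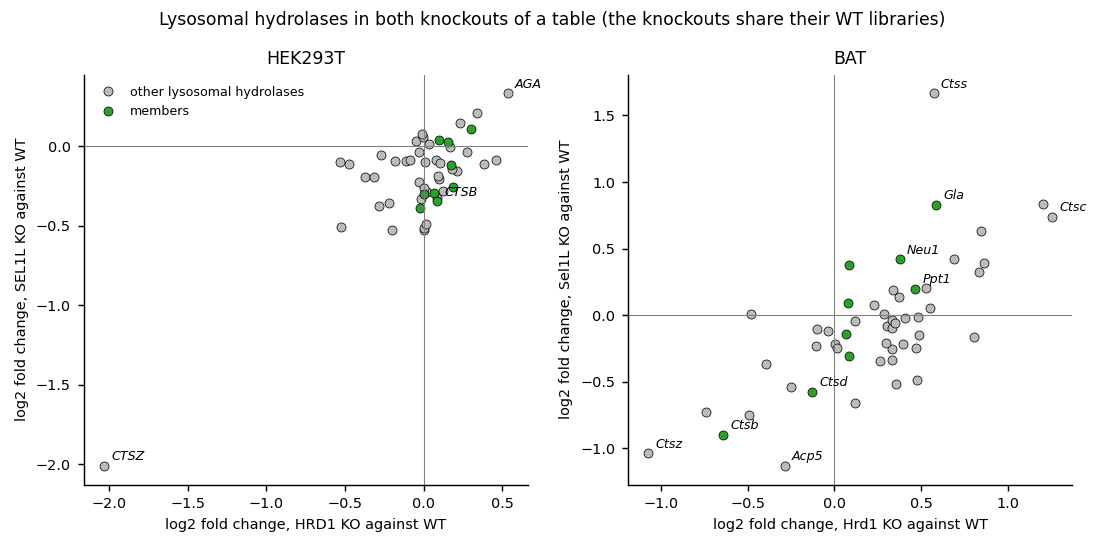
log2 fold changes of the 9 members (green) and the other lysosomal hydrolases tested (grey) in one knockout (x axis) and the other (y axis) of each table. CTSZ lies at -2.03 and -2.01 in HEK293T and Ctsz at -1.07 and -1.04 in BAT, and since both axes share their WT libraries the slope of the points is no result.

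The rest of the pathway gave no calls over all libraries. The 7 genes for mannose 6-phosphate tagging and sorting, all tested, had medians of -0.17 in HRD1 KO and -0.21 in SEL1L KO of HEK293T. After scaling these were -0.14 and -0.16, and the medians of all genes as deposited were -0.05 and -0.06. The receptor SCARB2 was lowest at -0.24 and -0.48. The uncovering enzyme NAGPA was highest at 0.06 and -0.14. In BAT, Gnptab, a subunit of the enzyme that starts the tag, was highest in Hrd1 KO at 0.73 (0.28 scaled) and Scarb2 lowest at -0.18 (-0.64 scaled). In Sel1L KO, the receptor M6pr was highest at 0.03 and Nagpa lowest at -0.69, or -0.05 and -0.30 without replicate 1. Activators and inhibitors of the hydrolases changed by -0.32 (PSAP in SEL1L KO) to 0.18 (CSTB in SEL1L KO) in HEK293T. In BAT they ran from -0.08 (Cstb) to 0.23 (Psap) in Hrd1 KO as deposited and from -0.53 (Cstb) to -0.22 (Psap) scaled, so that Psap and Gm2a changed sign. In Sel1L KO they ran from -0.51 (Gm2a) to -0.01 (Psap), and Psap was 0.19 without replicate 1.

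Genes of the lysosomal membrane and of cholesterol export ran from -0.42 (the cystine transporter CTNS) to -0.09 (NPC1) in SEL1L KO of HEK293T. Their median was -0.21 (-0.16 scaled), beside -0.06 over all genes as deposited. In HRD1 KO they ran from -0.25 (SLC38A9) to 0.28 (CD63). In BAT, Slc38a9 was highest in Hrd1 KO at 0.85 (0.42 scaled) and Lamp2 lowest at -0.41 (-0.86 scaled), while in Sel1L KO the calcium channel Mcoln1 was highest at 0.51 and the cholesterol carrier Npc2 lowest at -0.62 (adjusted p of 0.118). V-ATPase subunits, which acidify the lysosome, ran from -0.34 (ATP6V1A) to 0.15 (ATP6V0E1) in HRD1 KO and from -0.41 (ATP6V1D) to 0.09 (ATP6V1B2) in SEL1L KO. In Hrd1 KO of BAT they ran from -0.22 (Atp6v1f) to 0.93 (Atp6v0a1) as deposited and from -0.67 to 0.48 for the same genes scaled, with a median of 0.13 that became -0.32. In Sel1L KO they ran from -0.12 (Atp6v1a) to 0.52 (Atp6v1h), the latter being 0.32 without replicate 1.

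Of the MiT/TFE factors, Tfeb was 7.04, 6.46 and 6.38 FPKM in BAT WT, 11.62 and 11.84 in Hrd1 KO and 6.83, 8.86 and 7.41 in Sel1L KO. Its change of 0.82 in Hrd1 KO (adjusted p of 0.0513) was 0.37 after scaling, and that in Sel1L KO was 0.21. Mitf was lowest at -0.12 (-0.54 scaled) and -0.30. In HEK293T the 3 factors tested ran from -0.54 (MITF) to -0.05 (TFE3) in HRD1 KO and from -0.16 (MITF) to -0.06 (TFEB) in SEL1L KO. The medians of all genes were -0.05 and -0.06, and TFEB in SEL1L KO was at 0.0011 after scaling.

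The genes whose log2 values followed a member most closely differed from member to member. Over the 9 HEK293T libraries and 8010 genes with a mean of at least 10 FPKM, the closest gene to HEXA was PSAP (Pearson's r of 0.976), the precursor of the saposins that assist lysosomal hydrolases. The closest to the other members were WBP2 for FUCA1 (0.940), NMU for FUCA2 (0.969), MT-ATP6 for GLA (0.951), MRPS6 for NEU1 (0.969), MRPS14 for PPT1 (0.965), GTF3C1 for CTSD (0.971), SIDT2 for CTSB (0.949) and ZBTB8OS for CTSL (0.872). The closest to the mean of the standardised members were KRTCAP2 (0.936), the lysosomal progranulin gene GRN (0.929), TECR (0.923), ETHE1 (0.914) and CHST12 (0.912). All of these are descriptions over libraries that share replicate numbers and groups.

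In BAT, over 8 libraries and 5236 genes, Neu1 was closest to Hdlbp (0.994), Gla to Ngdn (0.981), Ctsb to Cd99l2 (0.983), Ctsd to Acat2 (0.985) and Ctsl to Atg12 (0.979). Ppt1 was closest to 0610010K14Rik (0.973), Fuca1 to Ctdsp1 (0.971) and Hexa to Mtor (0.969). Between members, Ctsb and Ctsd correlated at 0.894, Gla and Neu1 at 0.909, and Neu1 and Ctsb at -0.93, with Sel1L KO replicate 1 at the end of each of these genes' range. Among the closest to the mean of the members were Eif4e2 (0.961), Stimate (0.960), Cyp51 (0.953) and Pgd (0.947). In HEK293T the same pairs correlated at 0.436, 0.260 and 0.379.

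Several members share exon bases with a neighbour, and no source used here says whether counting used the strand. On GRCm38, Ctsd (chromosome 7, 142375911 to 142388038, minus strand) shares 34.4% of its exon bases with the gene model Gm49369 on the same strand, which was at 76.7 to 170 FPKM, so reads could be split between these. Ctsb (chromosome 14, 63122462 to 63145923, plus strand) shares 12.8% with Fdft1 on the other strand, at 27.4 to 60.1 FPKM. Ppt1 (chromosome 4, 122836242 to 122859175) shares 3.51% with Cap1. Neu1 (chromosome 17, 34931253 to 34935953), Fuca1 (chromosome 4, 135920735 to 135940311), Fuca2 (chromosome 10, 13499540 to 13519035) and Gla (chromosome X, 134588149 to 134601125) overlap no annotated gene. Hexa (chromosome 9, 59539540 to 59565109) shares 12.8% with Tmem202, which was at or below 0.730 FPKM, and Ctsl (chromosome 13, 64359337 to 64370890) lies over models at or below 0.280 FPKM.

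On GRCh38, GLA (chromosome X, 101393273 to 101408012, minus strand) shares 8.99% of its exon bases with RPL36A on the other strand, which was at 695 to 1534 FPKM. Whether reads of RPL36A add to the level of GLA, and so to its top rank in HEK293T WT, was not tested. FUCA2 (chromosome 6, 143494812 to 143511720) shares 13.5% with the pseudogene VDAC1P8, at 3.91 to 8.84 FPKM. CTSD (chromosome 11, 1752752 to 1764573) and HEXA (chromosome 15, 72340924 to 72376420) share 22.9% and 3.88% of their exon bases with unnamed genes on the same strand, between which reads could be split (ENSG00000250644 at 1.41 to 4.45 FPKM and ENSG00000260729 at or below 0.220 FPKM). Genes on the other strand over CTSD (PRADX, 23.4%) and HEXA (ENSG00000261460, 13.2%, and HEXA-AS1, 0.919%) were at or below 0.380, 0.16 and 0.580 FPKM. FUCA1 (chromosome 1, 23845077 to 23868290), PPT1 (chromosome 1, 40072710 to 40097260), NEU1 (chromosome 6, 31857659 to 31862905), CTSB (chromosome 8, 11842524 to 11869533) and CTSL (chromosome 9, 87724051 to 87731469) overlap none. CTSV, the close paralog of CTSL, was at 16.6 to 34.6 FPKM, and reads that fit both were divided by estimate.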

How the data were processed

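Gene expression was measured by paired-end RNA-seq of polyA RNA. The authors mapped reads with STAR 2.7.8a to GRCh38 or GRCm38 and estimated abundance with RSEM 1.3.3; FastQC 0.11.8 is also named in the submitters' processing notes. The deposited values are FPKM to 2 decimals, normalized to gene length and library total. FPKM are not counts, so the authors' DESeq2 test on estimated counts was not repeated. Depth in reads is unknown, and relative depth came from the step of 1 fragment in 1417 (HEK293T) and 657 (BAT) low genes.

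Groups were taken from the labels, and every value column was used. limma 3.58.1 (R 4.3.3) was run on log2(FPKM + 0.1) with a variance trend and all groups of a species in the same fit. Fold changes on this scale understate those of low genes. Genes with at least 1 FPKM in at least 3 HEK293T or 2 BAT libraries were tested, with Benjamini-Hochberg adjustment over all of them. Thresholds on the adjusted p were 0.05 (HEK293T) and 0.01 (BAT), with the numbers taken from the study's plots. The study's HEK293T legend gives 0.05 for P-values, without saying adjusted, and its BAT legend gives 0.01 for q-values. The members, pathway lists and markers were chosen with earlier results of these data known. The rule for genes named takes all members, the targeted genes, the highest and lowest of each pathway list and the closest genes by correlation, of which some in BAT are not reported here. The alternatives were pseudocount 1, no filter or 5 FPKM, median-ratio scaling, quantile normalization, only the 2 groups compared, no variance trend, a replicate block, each library left out, and other thresholds. The blocked fit at an unadjusted p and list genes without BAT Sel1L KO replicate 1 were added after seeing the data. Coordinates and exon overlaps are from GENCODE annotations of the same builds, which may be other releases than the authors used. Scripts were tested on simulated data and used Python 3.11.15, pandas 2.3.3, NumPy 2.4.6 and matplotlib 3.10.9.

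Pairing was checked by correlating deviations from the group mean. In HEK293T, libraries sharing a replicate number in their titles gave 0.216 to 0.485 (9 pairs), and libraries with different numbers gave -0.40 to 0.027 (18 pairs). The numbers therefore pair the HEK293T libraries.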

Additional observations from a re-analysis of the deposited data

How the results depend on the processing

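The count of members called stayed 0 in all 6 comparisons under pseudocount 1, no filter, the 5 FPKM filter, both scalings, the fit of only the 2 groups, no variance trend, the replicate block, the block with scaling and each left-out library (0 to 0), and at an adjusted p under 0.05 in BAT. An unadjusted p under 0.05 gave 2 in BAT Hrd1 KO and 3 in BAT Sel1L KO. The replicate block changed no adjusted call in HEK293T (0 in each comparison). An unadjusted p under 0.05 with the replicate block, chosen after seeing the data, gave 3 in HRD1 KO against SEL1L KO and 0 in both comparisons with WT. In BAT same-numbered libraries correlated at -0.060 to 0.077, so they share only a number, and the block also called 0. The median of the members moved from 0.083 to -0.36 in BAT Hrd1 KO and from 0.21 to -0.14 in Hrd1 KO against Sel1L KO with scaling, and to -0.40 and -0.21 with scaling and the block. The other changes listed are signs of log2 fold changes that passed no test. Median-ratio scaling shifted BAT Hrd1 KO as a whole and gave Fuca1 -0.36, Fuca2 -0.36, Hexa -0.38, Neu1 -0.069 and Ctsl -0.37, and with the block Fuca1 -0.40, Fuca2 -0.36, Hexa -0.45, Neu1 -0.12, Ppt1 -0.0082 and Ctsl -0.45. Quantile normalization gave Fuca1 -0.26, Fuca2 -0.42, Gla -0.038, Hexa -0.27, Neu1 -0.10 and Ctsl -0.061 there. In BAT Sel1L KO, Ctsl was -0.0071 when scaled, with or without the block. In HEK293T HRD1 KO, NEU1 was 0.0027 when scaled, with or without the block, and 0.023 under quantile normalization. Leaving out 1 library at a time turned the sign, with these ranges. In HEK293T HRD1 KO they were -0.010 to 0.18 for FUCA1, -0.025 to 0.48 for FUCA2, -0.19 to 0.26 for HEXA, -0.17 to 0.16 for NEU1, -0.19 to 0.44 for CTSD and -0.050 to 0.27 for CTSB. In HEK293T SEL1L KO they were -0.21 to 0.29 for FUCA2, -0.048 to 0.12 for GLA, -0.36 to 0.012 for PPT1 and -0.15 to 0.20 for CTSL. In BAT they were -0.066 to 0.23 for Fuca2, -0.093 to 0.22 for Hexa and -0.41 to 0.16 for Ctsd in Hrd1 KO, and -0.18 to 0.23 for Ctsl in Sel1L KO. The cause was not tested. Depth in reads is unknown, which limits Gla in BAT most, at about 1 FPKM.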
